A study of Mus musculus with 3 samples.

Results

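The genes described here are Eif4ebp2, Ipcef1, Cdk19, Sf3b4, Scd2 and Srgn, 6 of the 14355 genes measured in single naive CD4 T cells. They were chosen by a measured value, the spread of their counts between cells, which an earlier look at the same cells had put above what their mean predicts in all 3 plates. Freshly sorted naive CD4 T cells were prepared from lymph nodes and spleen of mice of the strain C57BL/6, aged 8 to 12 weeks, males and females pooled. The gate, among other markers, took live single cells positive for CD4, TCRb and CD5 and negative for CD44, CD25 and CD8, with no other treatment or allele. Cells were placed 1 per well in 384-well plates over the whole range of surface CD5, a surface receptor that is set higher the more strongly a cell's antigen receptor is engaged by self-ligands. Each cell has its CD5 fluorescence and a class given by the authors, Low (174 cells), Middle (349 cells) or High (174 cells).

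The 6 genes have unrelated jobs. Eif4ebp2 encodes a repressor of translation that holds the cap-binding protein eIF4E until mTORC1 phosphorylates it. Cdk19 is a kinase of the Mediator complex, which links transcription factors to RNA polymerase II, and Sf3b4 is a subunit of SF3B, the part of the U2 snRNP that recognises the branch site of introns. Scd2 is a desaturase that makes monounsaturated fatty acids, Ipcef1 encodes a partner of cytohesins, the exchange factors of the ARF6 GTPase, and Srgn encodes serglycin, the core protein of the proteoglycan that packs granules of blood cells. Transcripts gathered in few cells and transcripts spread thinly over many can give the same mean, so counts per cell are needed to see how a gene is distributed.

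The libraries held 172, 201 and 324 cells in plates 1, 2 and 3, with 725552, 1112484 and 1402881 unique molecular identifiers (UMIs, each taken as 1 transcript) and a median of 4241 UMIs per cell over all. Plates are the only replicates, and nothing in the labels says that they come from separate animals, so every p-value below measures spread between sums of cells that may be technical. Cd4 was found in 95.7% of cells, Lef1 in 84.8% and Cd3e in 80.6%, while the B cell genes Cd79a and Cd79b were found in 1.15% and 1.58% and H2-Aa and H2-Ab1, the other genes of that list most often found, in 5.02% and 4.73%. Ctss and Cst3 from the myeloid list were found in 40.2% and 19.9%, Klrd1 from the CD8 and NK list in 9.04% and Hmgb2 from the cycling list in 27.1%. Foxp3, a gene of regulatory T cells, was found in 8.03%. A number of wells carried the same number in more than 1 plate, 40 of them in all 3, so cells are named here by plate and well. In plate 2 the CD5 values do not follow Cd5 transcripts: the log2 ratio of Cd5 between the High and Low classes was 0.06 there, against 2.68 and 2.67 in plates 1 and 3. Values that rest on CD5 are therefore also given without plate 2.

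Eif4ebp2 was absent from most cells and present at several UMIs in a few. Of 697 cells, 635 had no UMI of it, 30 had 1, only 1 had 2, and 31 had 3 or more. It was found in 62 cells, where 173 would have a UMI if its 210 UMIs were spread over cells in proportion to their depth. By plate it was found in 6.40% of cells (95% exact Clopper-Pearson interval 3.24 to 11.2), 10.4% (6.58 to 15.5) and 9.26% (6.33 to 13.0), so the intervals of the plates overlap. Its highest counts in a cell were 9, 10 and 11 UMIs in plates 1, 2 and 3. Such intervals cover counting error only.

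The gap in the middle of the counts of Eif4ebp2 was seen in each plate: cells with 2 UMIs numbered 0, 0 and 1, and cells with 3 or more numbered 4, 13 and 14. Its ratio of cells with 3 or more UMIs to cells with 2 was 31, where the median of the 2010 genes within 1.5-fold of its mean was 0.789. That ratio ranked it 1 of those 2010 genes, and so did the share of its positive cells that held 5 UMIs or more, 33.9% against a median of 3.31%. These ranks restate the measure by which the gene was picked, and no test is given.

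Cdk19 was gathered in few cells as well. It was at 0 in 578 cells, at 1 UMI in 75, at 2 in 14 and at 3 or more in 30, and 19 cells held at least 5, where spreading by depth gives 0.24. Its highest counts were 11, 19 and 8 UMIs in plates 1, 2 and 3. The share of cells with a Cdk19 UMI was 16.3%, 12.9% and 20.1% by plate. Among the 1512 genes near its mean it ranked 14 by the share of positive cells with 5 or more, at 15.97% against a median of 4.37%.

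Ipcef1 was carried to a large extent by single cells. It had 1 UMI in 54 cells, 2 in 16 and 3 or more in 15, and only 7 cells held 5 or more. A cell of plate 3 held 18 of its 178 UMIs, 24.0% of the plate's total for the gene, and the top cells of plates 1 and 2 held 10 each. Ipcef1 had a UMI in 11.05%, 16.9% and 9.88% of cells by plate. Its rank by the share of positive cells with 5 or more was 181 of 2180 genes, nearer the middle than that of Eif4ebp2 or Cdk19.

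Sf3b4 was seen in more cells than Eif4ebp2, Cdk19 and Ipcef1 and had a long upper end. It was at 1 UMI in 108 cells, at 2 in 32 and at 3 or more in 51. Of 697 cells, 26 held 5 or more, where spreading by depth gives 1.89, and the highest counts were 13, 12 and 12 UMIs in plates 1, 2 and 3. The share of cells with a UMI was 29.7%, 24.9% and 27.8% by plate, with overlapping intervals. Sf3b4 ranked 53 of 934 genes near its mean, at 13.6% against a median of 6.50%.

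Scd2 had the mildest upper end of the 5 sparse genes. It was at 1 UMI in 41 cells, at 2 in 18 and at 3 or more in 17, and its highest counts were 5, 5 and 7. Only 5 cells held at least 5 UMIs. It was found in 9.30%, 9.45% and 12.7% of cells of plates 1, 2 and 3, and its rank was 302 of 2374 genes. Scd2 has paralogs whose reads could be divided between them by mapping: Scd1, Scd3 and Scd4 were listed with 7, 17 and 14 UMIs in all, against 148 for Scd2.

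Srgn was of another kind, and for it the description as rare high-count cells does not hold. It was found in 544 of 697 cells (78.0%), with a median of 2 UMIs, and 191 cells held 5 or more, where spreading its 2653 UMIs by depth gives 239. Thus cells with no Srgn UMI and cells at the far end were both frequent: 153 cells had none, where spreading by depth leaves UMIs in 634 cells, and 74 had 10 or more. The highest counts were 39, 33 and 28 UMIs by plate. Among the 93 genes near its mean, Srgn ranked 50 by the share of positive cells with 5 or more, close to the middle. It was found in 71.5% of cells in plate 1 (64.1 to 78.1), 73.6% in plate 2 (67.0 to 79.6) and 84.3% in plate 3 (79.8 to 88.0), and the interval of plate 3 lies above those of the other two.

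**Figure D1:**
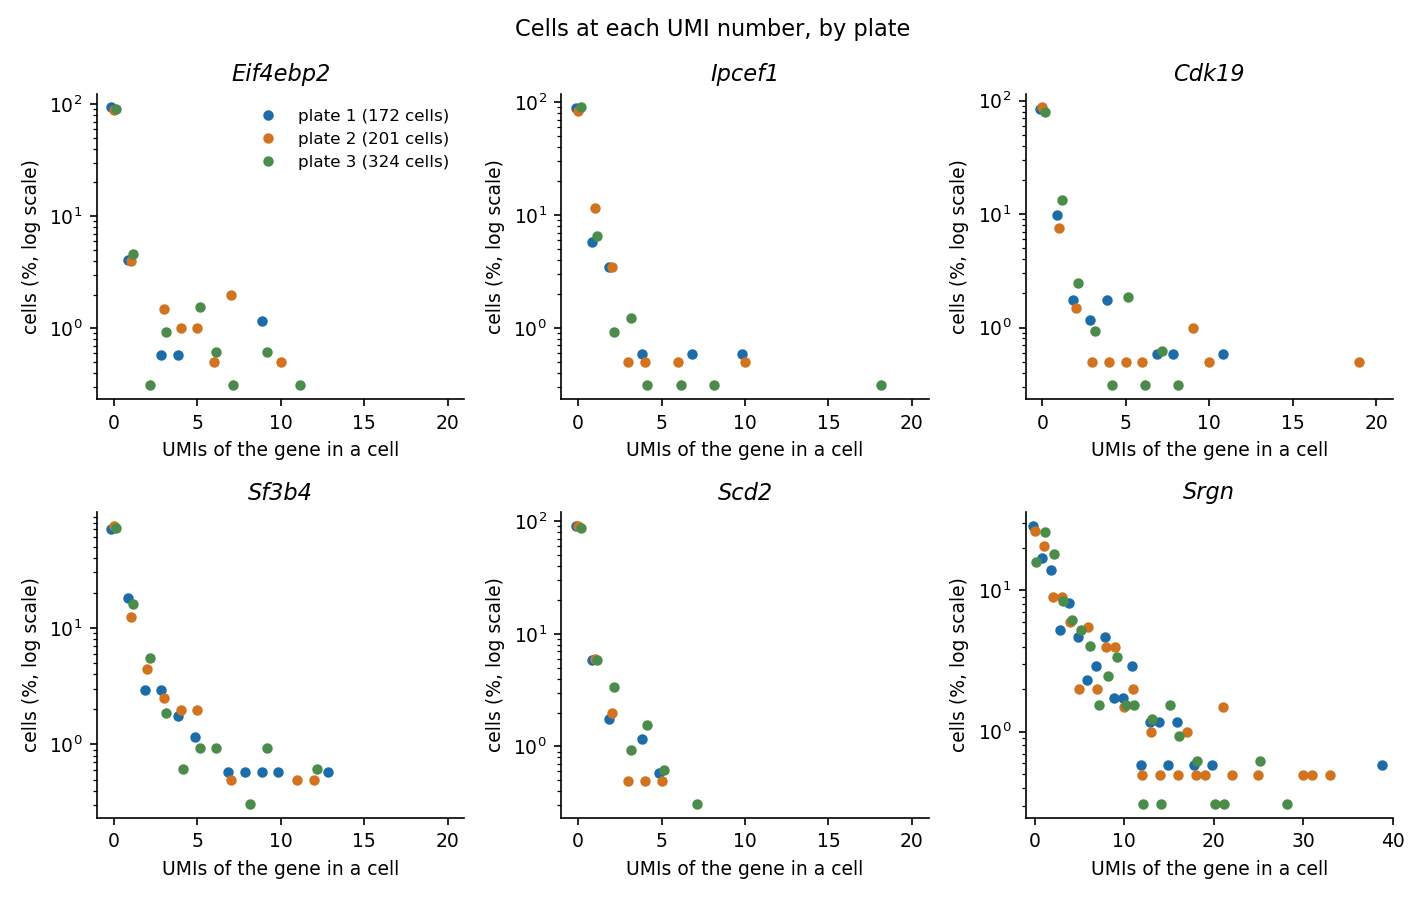
Share of cells (percent, log axis) at each number of UMIs of a gene, for the 6 genes, with each plate as a colour and points set slightly apart sideways. Eif4ebp2 has 1 cell at 2 UMIs and 31 at 3 or more, the 4 other sparse genes fall off more evenly, and Srgn runs out to 39 UMIs.

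The sequencing tag sits near the 3′ end and gives 1 count per transcript, so levels are in CPM (the share of all UMIs, scaled as counts per 1000000) and are not divided by length. Summed over all cells, Srgn was at 819 CPM, Sf3b4 at 140, Cdk19 at 87.3, Eif4ebp2 at 64.8, Ipcef1 at 54.9 and Scd2 at 45.7. Eif4ebp2 was at 44.1, 71.0 and 70.6 CPM in plates 1, 2 and 3, and the Poisson interval of plate 1 (30.2 to 62.3) overlaps that of plate 2 (56.2 to 88.5). Scd2 was at 39.97, 28.8 and 62.0 CPM, with plate 3 (49.7 to 76.5) above plate 2 (19.7 to 40.6). Sf3b4 was at 172, 111 and 147 CPM, with plate 1 (143 to 205) above plate 2 (92.7 to 133). Ipcef1 was the steadiest in level, at 59.3, 53.9 and 53.5 CPM. These intervals treat transcripts as independent and are too narrow for genes whose counts are this uneven.

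Because depth differs between cells, a high cell was defined for each gene as one with at least 5 UMIs of it and at least 5 times the number its depth and its plate's level give. Eif4ebp2 had 21 such cells (3.01%, 1.87 to 4.57), which held 69.0% of its UMIs. By plate they numbered 2, 8 and 11. Cdk19 had 19 high cells (3, 6 and 10 by plate) with 50.2% of its UMIs, and Sf3b4 had 21 (5, 6 and 10) with 36.7%. Ipcef1 had 7 high cells, 2, 2 and 3 by plate, with 36.5% of its UMIs. Scd2 had 5, 1, 1 and 3 by plate, with 18.2%. Srgn had 15 high cells, 4, 5 and 6 by plate, but they held only 8.48% of its UMIs. Every gene thus had high cells in all 3 plates. The definition was applied to these 6 genes only. How many other genes have such cells in each plate was not counted, so this is not a trait shown to be particular to them. For Eif4ebp2 they held more of its UMIs than all other cells together in each plate (56.3%, 68.4% and 73.7%). For Cdk19 this was so in plate 2 (67.4%), but not in plate 1 (38.8%) or plate 3 (44.6%).

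High cells of the genes differed in depth. Median UMIs per cell were 7241 in the high cells of Eif4ebp2 and 4192.5 in all other cells, 6710 against 4208 for Ipcef1, and 5899 against 4192.5 for Cdk19. For Sf3b4 they were 4609 against 4219, and for Scd2 5836 against 4234.5. High cells of Srgn were shallow, with a median of 1867 UMIs against 4290, and with 1893.5, 4382 and 1371 UMIs in plates 1, 2 and 3, each under the other cells of the plate. In single plates the high cells of Scd2 (plates 1 and 2, 1 cell each, 3270 against 3749 and 3077 against 5446.5) and of Ipcef1 (plate 2, 4924 against 5444) were also the shallower ones. The definition sets a count against the number expected at the cell's depth, so depth enters it.

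**Figure D2:**
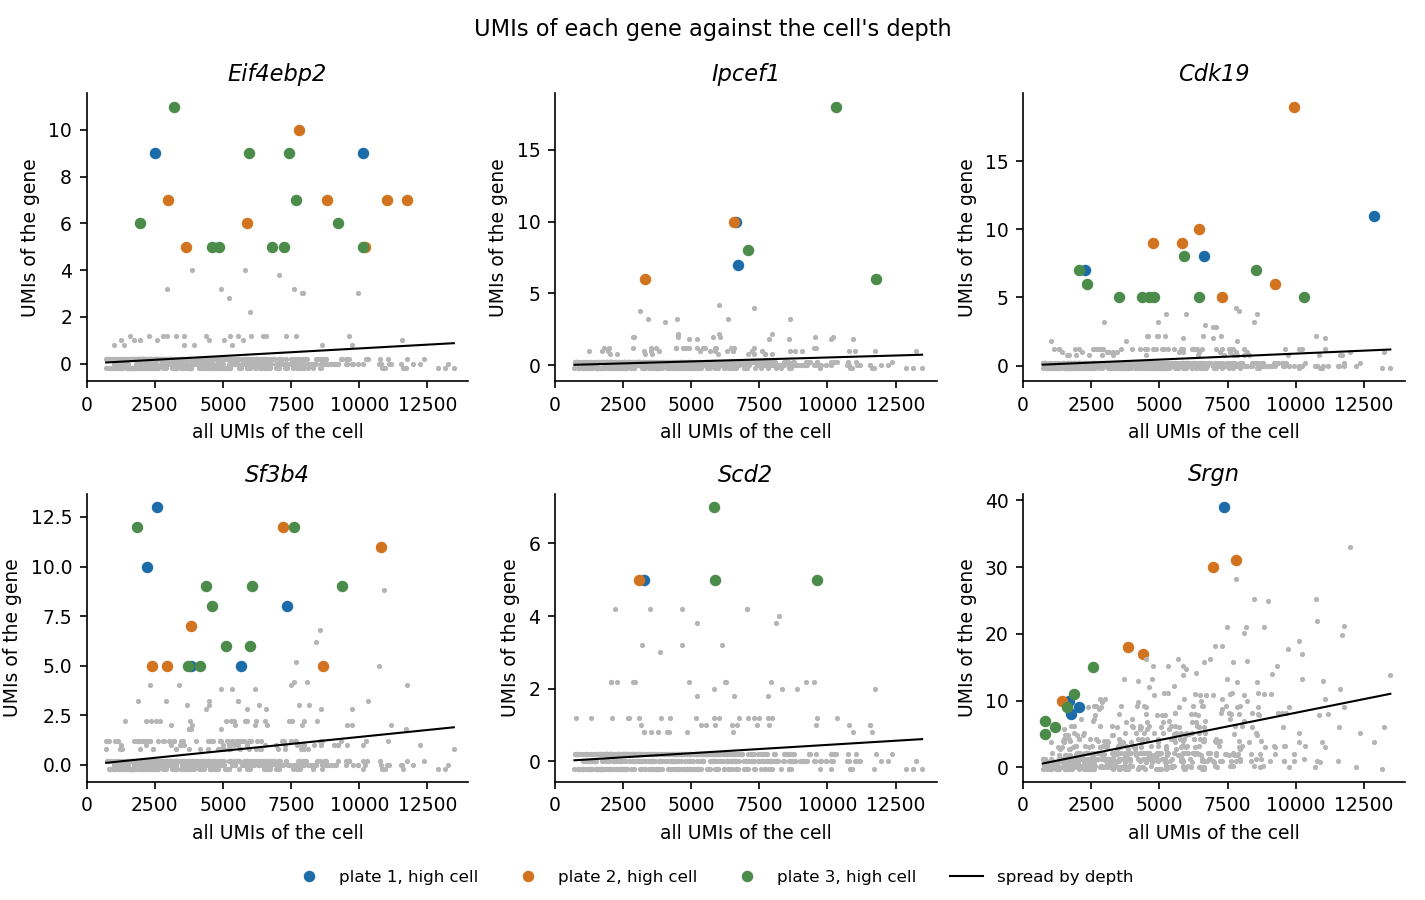
UMIs of each gene in a cell (vertical) against all UMIs of that cell (horizontal), 1 point per cell, with grey points set slightly apart by plate. Coloured points are the high cells by plate, and the black line is the count expected if the gene's UMIs were spread by depth over all cells. High cells of Eif4ebp2 run from shallow to deep cells, while 12 of the 15 high cells of Srgn lie among the shallower cells of their plates.

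Each of the 6 genes was found in a larger share of the deeper cells. Eif4ebp2 was found in 6.30% of the 349 shallower and 11.5% of the 348 deeper cells of the plates, whose median depths were 2424 and 6394 UMIs. Thinned to 2118 UMIs, a depth reached by 209 shallower and 348 deeper cells, the shares were 5.68% and 7.14%. Cdk19 went from 9.17% and 25.0% to 8.00% and 12.4% on thinning, and Sf3b4 from 18.1% and 36.8% to 17.4% and 18.9%. Srgn went from 67.9% and 88.2% to 60.5% and 65.1%. Thinned shares were 6.36% and 7.93% for Ipcef1 and 6.91% and 7.05% for Scd2. For Ipcef1 the plates disagreed, with 3.01% and 8.20% in plate 3 and the larger share in the shallower cells of plates 1 and 2. They also disagreed for Sf3b4, with 15.4% and 25.3% in plate 1 and 18.1% and 13.5% in plate 2. Scd2 had the larger thinned share in the shallower cells of plates 1 and 3, and Srgn was at 69.2% and 69.1% in plate 3. Of the high cells, 16 of the 21 of Eif4ebp2, 14 of the 19 of Cdk19 and 14 of the 21 of Sf3b4 were among the deeper cells. So were 6 of the 7 of Ipcef1 and 3 of the 5 of Scd2, while 12 of the 15 of Srgn were among the shallower. The floor of 5 UMIs favours deeper cells for a sparse gene, and the 5-fold rule favours shallower cells for Srgn. This placement follows in part from the definition and is not a separate result on depth.

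As a test over plates, counts were summed over the deeper and the shallower cells of each plate and fitted with edgeR's quasi-likelihood test over all genes, with the plate as a block. In that fit, 0.435% of 5741 genes passed at an adjusted p of 0.05, and 0 of the 6 genes did. None of them had an unadjusted p below 0.05 either, and the smallest adjusted p of the set was 0.864. Sf3b4 was at 202, 150 and 159 normalised CPM in the shallower and 172, 104 and 148 in the deeper cells of plates 1, 2 and 3, lower in the deeper cells of 3 of 3 plates. Its log2 difference, deep minus shallow, was -0.28 (SE 0.21, adjusted p = 0.864 by edgeR). Scd2 was lower in the deeper cells of 3 of 3 plates as well, at -0.30 (SE 0.38, adjusted p = 0.957 by edgeR).

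For Eif4ebp2 the deep-minus-shallow difference was -0.19 (SE 0.33), with plate values of -0.91, 0.07 and 0.03, and for Cdk19 it was 0.33 (SE 0.29), with 0.08, 0.89 and 0.04. Ipcef1 was at 0.38 (SE 0.39), with plate values from -0.58 to 1.45. Srgn had the tightest estimate, -0.10 (SE 0.11, approximate 95% interval -0.33 to 0.12). Single cells weigh on these values: without the top cell of each gene in each plate, 18 cells in all, Eif4ebp2 moved to 0.38, Ipcef1 to -0.10, Cdk19 to -0.02 and Scd2 to 0.24, each with the other sign, and Sf3b4 moved to -0.029.

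The measure that had picked the genes was computed again as a description. The 557 cells with at least 2118 UMIs were thinned to that depth. Variance and mean were taken over all possible thinnings in place of a random draw. The variance-to-mean ratio of each gene was then set against a smooth trend on the mean. A ratio of 1 is what random sampling of a gene at equal level gives. The median gene was at 1.41, 1.48 and 1.36 in plates 1, 2 and 3. Eif4ebp2 was at 4.98, 2.79 and 3.19 (mean 3.66, SD 1.17, n = 3 plates), Cdk19 at 2.97, 2.83 and 2.11 (2.64, SD 0.46), and Sf3b4 at 4.40, 2.36 and 1.96 (2.91, SD 1.31). Srgn was at 2.60, 3.07 and 2.46 (2.71, SD 0.32), Ipcef1 at 2.16, 2.09 and 2.005 (2.08, SD 0.078) and Scd2 at 1.85, 1.99 and 1.96 (1.93, SD 0.074). Each of the 6 lay above the median gene in each plate. The order among them differed between settings, which change the cells kept as well as the depth, since only cells reaching a depth enter. At the median depth Srgn (4.11) and Cdk19 (3.43) lay above Eif4ebp2 (3.26). With no thinning and all cells kept, Srgn was at 6.95 and Eif4ebp2 at 5.56. The parts of depth and of the cells kept were not separated.

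Only 2 of the 6 genes, Eif4ebp2 and Cdk19, had a residual in the top 5% in each plate when computed in this way. Over all genes, 21 of 4316 did, 0.487%. The lowest of the 3 plate percentiles was 97.9 for Eif4ebp2, 96.2 for Cdk19, 94.3 for Srgn, 93.0 for Sf3b4, 92.0 for Ipcef1 and 86.2 for Scd2. So 4 of the 6 lie under the threshold. With the top 10% as the threshold, 5 of the 6 passed, all but Scd2, and 55 genes in all. Genes just inside the threshold of 5% include Cdk19 and mtNd5 (95.4), and just outside were Ikzf2 (94.7), Trim21 (94.5) and Dgka (94.5).

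Part of the spread of several genes belonged to 1 cell per plate. The top cell was the one with the most UMIs of the gene before thinning. Without the top cell of each plate, Eif4ebp2 was at 1.78, 2.75 and 2.15, and Scd2 at 1.30, 1.32 and 1.88. Sf3b4 was at 3.06, 2.25 and 1.89. Ipcef1 was at 1.78, 1.83 and 1.57. Cdk19 hardly moved, at 3.03, 2.53 and 2.04, and Srgn moved little, at 2.24, 3.05 and 2.42. A deep top cell keeps few UMIs on thinning. For Cdk19 in plate 1 the cell left out had 11 of 12875 UMIs, and one with 7 of 2286 stayed. A small move therefore does not show that no single cell weighs on the ratio. With the top cell of every gene removed, 3 of the 6 passed the 5% threshold, and 31 genes in all.

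**Figure D3:**
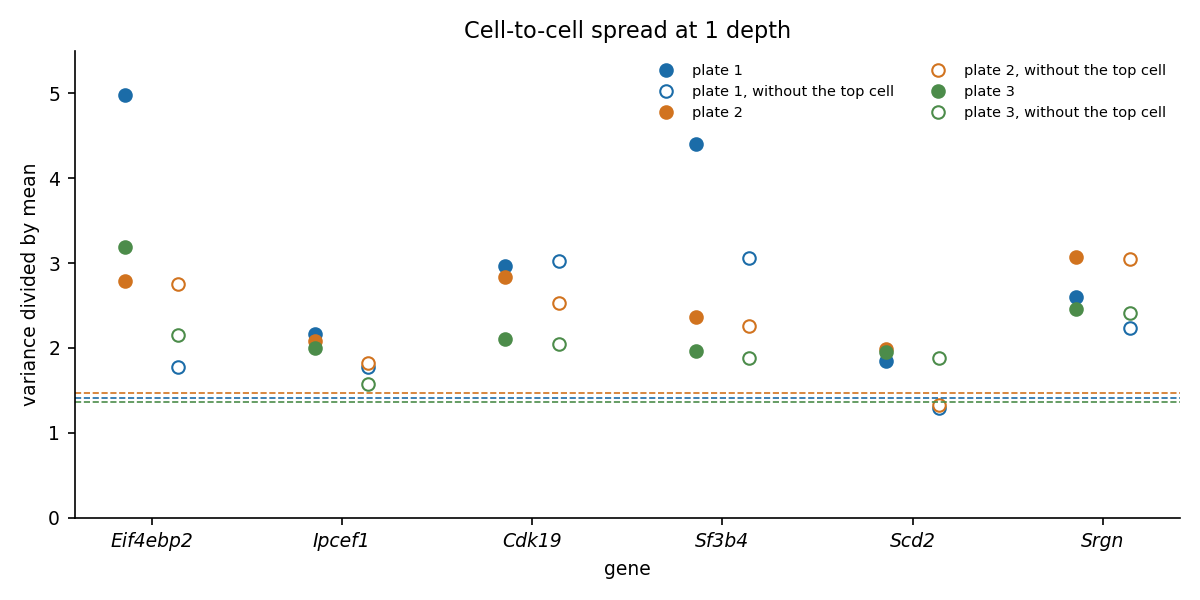
Variance divided by mean of the 6 genes at 1 depth, with filled points for all cells and open points without the cell that holds the most UMIs of the gene, by plate. Dashed lines mark the median of all compared genes in each plate (1.36 to 1.48). Eif4ebp2 in plate 1 drops from 4.98 to 1.78, and Cdk19 and Srgn stay near their values.

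High cells of the 6 genes were for the most part different cells, with overlaps near the number that independence gives. In all, 84 cells (12.1%) were high in at least 1 gene and 3 were high in more than 1. Over the 15 pairs of genes, 5 had a cell in common, 1 each, where 4.48 shared cells would be counted if the genes were independent within plates. Eif4ebp2 shared no high cell with Ipcef1, Scd2 or Srgn, where independence gives 0.20, 0.15 and 0.45. Scd2 shared none with any of the 5 others, where independence gives 0.049 to 0.15 per pair. So the absence of a shared cell in these pairs says little. The cell of plate 3, well 255, was high in Eif4ebp2 (5 UMIs), Cdk19 (5) and Sf3b4 (8), with 4609 UMIs in all and in the Low class. The cell of plate 3, well 148, a deep cell of 10298 UMIs, held the 18 UMIs of Ipcef1 and 5 of Cdk19, and that of plate 1, well 174, held 8 UMIs of Sf3b4 and the 39 of Srgn.

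**Figure D4:**
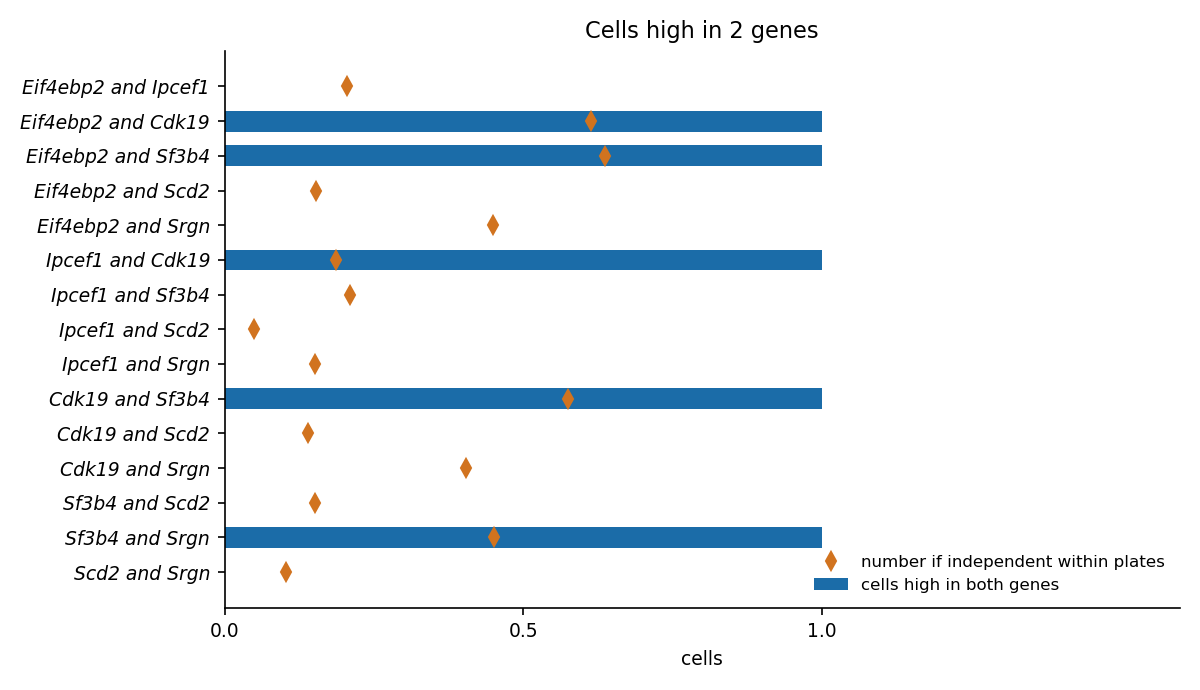
Number of cells high in both genes of each of the 15 pairs (bars), with the number expected if the genes were independent within plates (diamonds). The pairs with a bar have 1 shared cell, and 3 of those 5 come from 1 cell of plate 3.

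Ranked over cells within a plate, the shares of the 6 genes were hardly related. Spearman's rho, averaged over the 3 plates, ran from -0.04 (Scd2 and Srgn) to 0.11 (Ipcef1 and Srgn) over the 15 pairs. All cells of a plate share its library, and most values are 0, so these numbers are a description only. Of 6382 other genes compared, those most like Srgn include Tob1 (mean rho 0.15), an antiproliferative gene, and Herc4 (0.15), with 0.11, 0.21 and 0.15 for Tob1 by plate. Scd2 was most like Aim1 (0.23), 2610507B11Rik (0.17) and Jagn1 (0.17), and Aim1 gave 0.24, 0.33 and 0.12 by plate. For Eif4ebp2 the list was Bclaf1 (0.18), Uqcr10 (0.17) and Trappc10 (0.17), for Ipcef1 it was Glrx3 (0.20), Ipo4 (0.19) and Arhgap25 (0.18), for Cdk19 it was Cpsf3l (0.21), Gpkow (0.20) and Kif1b (0.20), and for Sf3b4 it was Smarcd2, Cep85 and Wdr13 (0.15 each). For each of the 6 genes the 99th percentile over all genes lay between 0.10 and 0.14. The named genes lie above it because they are the highest of all genes compared, and their values are still low. Some differed widely between plates: Uqcr10 was at 0.30, 0.19 and 0.03, Trappc10 at 0.32, 0.03 and 0.16, and Kif1b at 0.38, 0.19 and 0.02.

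What else the high cells held was compared as measured values. Markers of naive CD4 T cells, 11 genes, had UMIs in every high cell of every gene, at 8494 CPM in the high cells of Eif4ebp2 and 8294 in the rest, and at 7083 in the high cells of Srgn and 8320 in the rest. Markers of mast cells, basophils and platelets, cells rich in serglycin, had 0 UMIs in the high cells of each of the 6 genes, 4 of 8 markers being in the table. Those 4 were scarce in all cells, with Ms4a2 found in 7 and Kit, Ppbp and Itga2b in 1 each. Outside the high cells of Srgn they were at 6.26 CPM, so 0 UMIs in so few cells says little. Genes of regulatory T cells were at 174 CPM in the high cells of Eif4ebp2, with UMIs in 5 of 21, and at 98.5 in the rest. They were at 289 CPM in the 5 high cells of Scd2 against 100.2. They were lower in the high cells of Cdk19 (25.4 against 105), Sf3b4 (54.4 against 103), Ipcef1 (38.2 against 103) and Srgn (21.7 against 103). The high cells held only 8 UMIs of these genes for Scd2, 3 for Cdk19, 6 for Sf3b4, 2 for Ipcef1 and 1 for Srgn. With so few UMIs these differences say little. The part of these differences in the genes' counts was not tested. Rn45s, the ribosomal RNA precursor, took a median of 3.30%, 8.38% and 1.81% of UMIs in the high cells of Eif4ebp2 in plates 1, 2 and 3, and 1.41%, 2.58% and 1.29% in the other cells. It was also higher in the high cells of Ipcef1, at 3.20%, 4.82% and 2.37% against 1.41%, 2.62% and 1.27%. For Sf3b4 it was lower in plates 1 and 3 (0.548% against 1.48% and 0.987% against 1.32%) and higher in plate 2 (4.27% against 2.62%). Its part was not tested. Median mitochondrial shares were 16.7%, 12.1% and 14.7% in the high cells of Eif4ebp2 in plates 1, 2 and 3, and 15.9%, 12.8% and 15.2% in the others.

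The place of the high cells on the plates was checked, since a well has its own primer with a cell barcode. Taking the cell number in the table as the primer number of the deposited sheet, 2 well positions held a high cell of the same gene in 2 plates. They are shown with their barcodes, 5′ to 3′, the whole barcode in capitals.
Well C12, Sf3b4: CGGGTGAA
Well I1, Srgn: CCAGAAAG
Well C12 had 10 UMIs of Sf3b4 among 2229 in plate 1 and 12 among 1833 in plate 3, or 0.449% and 0.655% of the cells' UMIs. Well I1 had 17 UMIs of Srgn among 4382 in plate 2 and 15 among 2571 in plate 3. From the positions of kept cells alone, 0.33 such repeats would be counted for Sf3b4 and 0.17 for Srgn. Neighbouring well numbers held 2 pairs of high cells for Eif4ebp2, of 84 pairs in the same plate, and 2 of 31 for Srgn, where positions alone give 0.54 and 0.22, and the other 4 genes had none. No source of these repeats was tested.

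High cells were found in all CD5 classes for 5 of the genes. Eif4ebp2 had 4, 11 and 6 high cells among the Low, Middle and High classes, that is 2.30% (0.63 to 5.78), 3.15% (1.58 to 5.57) and 3.45% (1.28 to 7.35). Cdk19 had 8, 4 and 7, or 4.598%, 1.15% and 4.02%, with overlapping intervals. Sf3b4 had 7, 9 and 5 (4.02%, 2.58% and 2.87%), Scd2 1, 2 and 2 (0.575%, 0.573% and 1.15%), and Srgn 3, 6 and 6 (1.72%, 1.72% and 3.45%). Ipcef1 had 0 high cells in the Low class, where 0 of 174 has an upper exact limit of 2.10%, and 5 and 2 in the Middle and High classes. Without plate 2 the Low, Middle and High classes held 3, 6 and 4 high cells of Eif4ebp2, 5, 2 and 6 of Cdk19, 5, 7 and 3 of Sf3b4, 1, 1 and 2 of Scd2, 3, 3 and 4 of Srgn, and 0, 4 and 1 of Ipcef1. Cells high in at least 1 gene numbered 20 of 174, 36 of 349 and 28 of 174 with all plates. The Middle class held the most cells in each plate, so its counts are not to be set directly against those of the other classes. Across cells, the shares of the 6 genes had a mean rho with CD5 from -0.07 (Sf3b4) to 0.06 (Ipcef1), and from -0.09 (Sf3b4) to 0.03 (Ipcef1) over plates 1 and 3.

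Whether the genes follow self-reactivity was asked by setting High against Low cells, and none of the 6 passed it. Of 4813 genes, 0.187% passed at an adjusted p of 0.05 by edgeR, and 0 of the 6 genes did, with no unadjusted p below 0.05. DESeq2 also called 0 of the 6. Cd5, the gene of the sorted protein, passed, with a High-minus-Low value of 1.70 (log2, SE 0.30, adjusted p = 0.00213 by edgeR). That value was 2.76 without plate 2, and 2.14 when plate 2 cells took their next well number's CD5. The call was lost without plate 1 (1.21, adjusted p = 0.714 by edgeR) and without plate 3 (1.29, adjusted p = 0.0586 by edgeR).

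Ipcef1 was at 40.6, 26.6 and 54.4 normalised CPM in the Low class and at 92.1, 74.1 and 47.1 in the High class of plates 1, 2 and 3. The classes overlap, and plate 3 goes the other way. Its log2 difference was 0.73 (SE 0.44, interval -0.13 to 1.597, adjusted p = 0.887 by edgeR), 0.43 without plate 2, 0.24 with the next well's CD5 and 1.30 without plate 3 (unadjusted p = 0.0311 by edgeR).

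Eif4ebp2 was at 5.08, 66.4 and 77.3 CPM in the Low class and at 103, 77.8 and 58.0 in the High class, so that the plates differ in direction. The log2 difference was 0.67 (SE 0.46, adjusted p = 0.914 by edgeR). It rested on plate 1, where the Low class held 1 UMI of Eif4ebp2 and the High class 19, and there the 2 top cells, wells 42 and 194, held 9 each. Without plate 1 the difference was -0.10, without plate 2 it was 0.94 and without plate 3 it was 1.44.

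Cdk19 was at 142, 168 and 120 CPM in the Low, 68.0, 63.7 and 66.9 in the Middle and 103, 51.9 and 149 in the High class. The Middle class was thus under the Low class in 3 of 3 plates, and the High class was above the Low class only in plate 3. Its High-minus-Low value was -0.52 (SE 0.34, adjusted p = 0.913 by edgeR), and it changed sign to 0.12 without the top cells and to 0.17 with the next well's CD5 in plate 2. Leaving out plate 2, whose top cell held 19 UMIs in the Low class, gave -0.04, and leaving out plate 3 gave -1.07 (unadjusted p = 0.0242 by edgeR).

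Scd2 was at 35.6, 13.3 and 54.4 CPM in the Low and 43.3, 29.7 and 76.1 in the High class, so 3 of 3 plates have the same direction while the ranges overlap. The log2 difference was 0.54 (SE 0.49, adjusted p = 0.965 by edgeR), 0.39 without plate 2 and 0.83 with the next well's CD5. Sf3b4 was at 224, 164 and 172 CPM in the Low and 179, 185 and 134 in the High class, a difference of -0.13 (SE 0.28), and at -0.35 without plate 2. Srgn was at 788, 749 and 916 CPM in the Low and 1002, 960 and 750 in the High class, with an estimate of 0.14 (SE 0.14, interval -0.13 to 0.40). Without plate 2 it was at -0.0042.

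**Figure D5:**
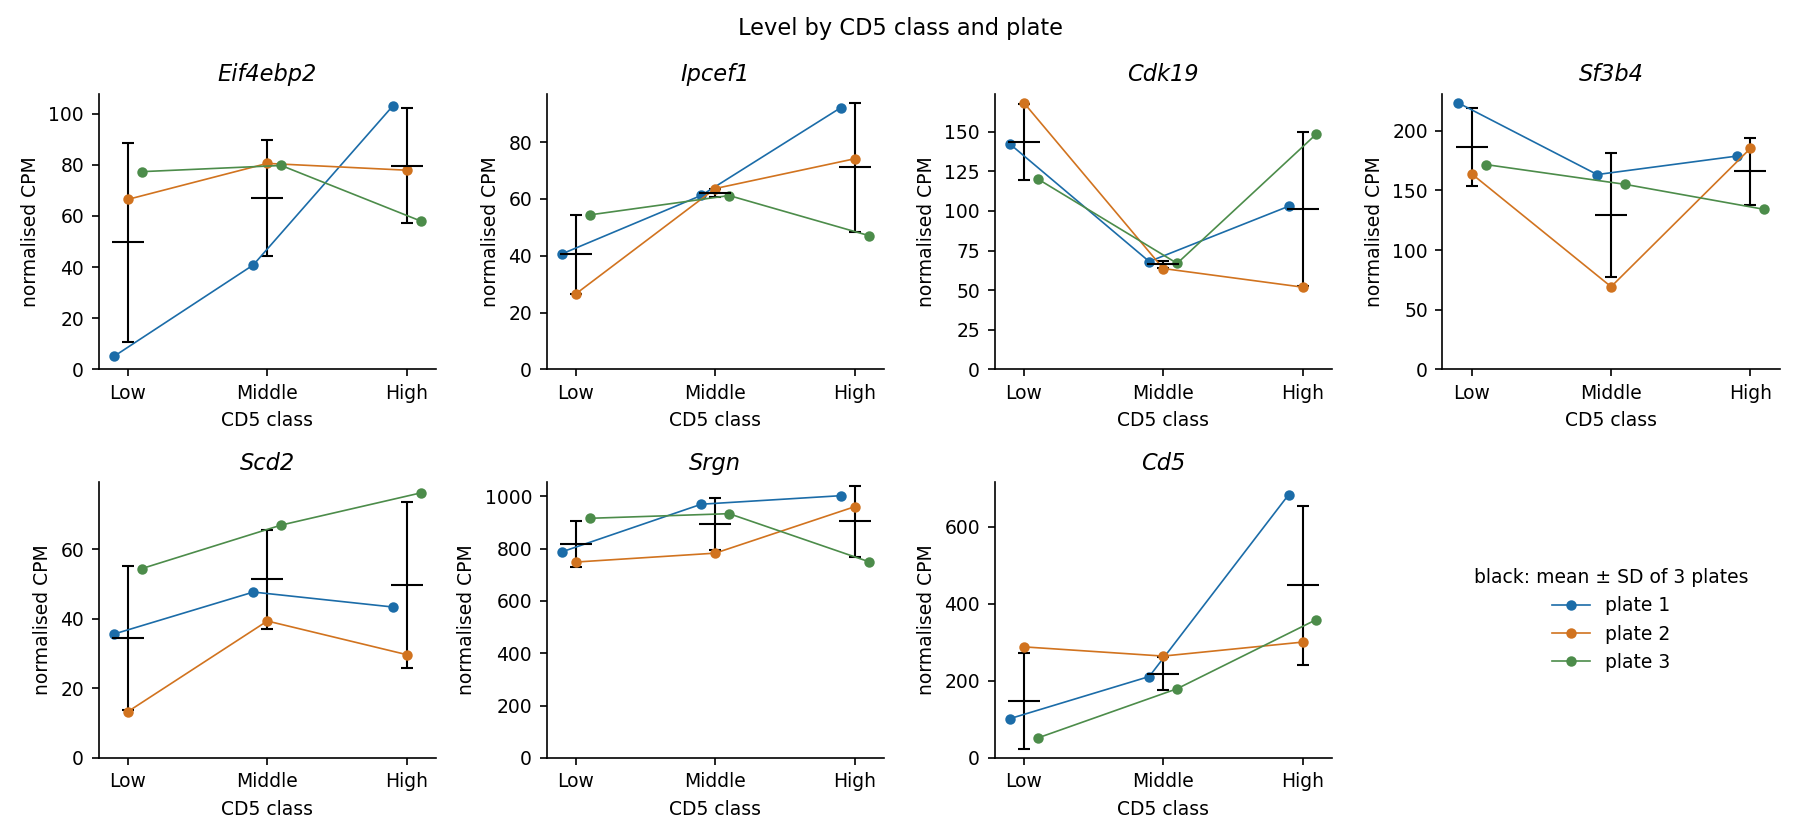
Normalised CPM of the 6 genes and of Cd5 in the Low, Middle and High CD5 classes, with a line for each plate and the mean ± SD of 3 plates in black. The Low and High classes overlap for each of the 6 genes, and Cd5 is higher in the High class by 2.68, 0.06 and 2.67 (log2) in plates 1, 2 and 3.

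A slope on CD5 itself, fitted over 4 bins of cells per plate, gave the same picture. In this fit 0.175% of 4578 genes passed and 0 of the 6 genes did, by edgeR, with none at an unadjusted p below 0.05. Cd5 had a slope of 0.63 per doubling of CD5 (SE 0.11, adjusted p = 0.00164 by edgeR), 0.99 without plate 2, and its call was lost without plate 1 (0.45, adjusted p = 0.491) and without plate 3 (0.51, adjusted p = 0.999). Cdk19 had the smallest unadjusted p of the 6, 0.0605, with a slope of -0.25 (SE 0.13, adjusted p = 0.995 by edgeR), and was at 141, 70.3, 61.1 and 101 CPM from the lowest to the highest bin. That is a fall and a return, not a steady slope, and the slope was 0.03 without the top cells, -0.12 without plate 2 and -0.40 without plate 3. Eif4ebp2 was at 50.6, 59.1, 75.8 and 83.1 CPM over the 4 bins, with SDs of 43.9, 17.7, 49.9 and 30.8 over plates and a slope of 0.28 (SE 0.19). That slope was 0.038 without plate 1, 0.35 without plate 2, 0.53 without plate 3, 0.0027 with the next well's CD5 and 0.13 without the top cells. Without plate 2 the slopes of Ipcef1, Sf3b4, Scd2 and Srgn were 0.077, -0.13, 0.098 and 0.0040, and with all plates they were 0.20, -0.065, 0.16 and 0.044.

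Genes that work with each of the 6 were read in the same class fit, from lists drawn up by function. Of 19 genes of eIF4E and mTORC1 beside Eif4ebp2, 12 were tested and 0 passed, with a median log2 difference of -0.07 where that of all genes was 0.00396. Eif4a2, the RNA helicase of the cap complex, was at -0.31 (SE 0.15, unadjusted p = 0.0396, adjusted p = 0.791 by edgeR). The sister repressors were thin as well: Eif4ebp1 had 14 UMIs in all cells, and Eif4ebp3 had 146 in 88 cells, with no more than 5 in a cell.

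Of 16 cytohesin and ARF6 genes beside Ipcef1, 11 were tested and 0 passed, with a median of 0.12. Cytip, which binds cytohesin 1 in lymphocytes, was at 0.41 (SE 0.14, unadjusted p = 0.00617, adjusted p = 0.624 by edgeR). Its level was 662 CPM, far above the 54.9 of Ipcef1.

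Of 19 Mediator genes beside Cdk19, 13 were tested and 0 passed, with a median of -0.003. Cdk8, the paralog of Cdk19 in the same kinase module, had 97 UMIs in 57 cells, at most 9 in a cell, and Med12 and Med13 had 252 and 284. Med12 was at 0.84 (SE 0.41, adjusted p = 0.800 by edgeR). Of 15 SF3A, SF3B and U2 snRNP genes beside Sf3b4, 14 were tested and 0 passed, with a median of -0.09. Sf3b1, the large subunit that contacts the branch site, was at 911 CPM and found in 567 cells, and Sf3b3 at 143 CPM had a cell with 18 UMIs, more than the highest count of Sf3b4.

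Of 28 genes of fatty acid desaturation and SREBP targets beside Scd2, 12 were tested and 0 passed. Their median was 0.27, and 8 of the 12 were positive. Elovl5, a fatty acid elongase, was at 0.47 (SE 0.29, adjusted p = 0.902 by edgeR) and Cyp51, an enzyme of sterol synthesis, at 1.04 (SE 0.68, adjusted p = 0.912). Of 19 partners of serglycin, granule proteins and enzymes of glycosaminoglycan synthesis, only Cd44 had enough counts to be tested, at 0.40 (SE 0.60), and the sort had removed cells with surface CD44. The granule genes Gzma and Prf1 had 4 and 16 UMIs in all cells, against 2653 of Srgn.

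By position, 4 of the 6 genes lie on chromosome 10, which holds 4.94% of the genes that average 0.05 UMIs per cell or more. On GRCm38, the assembly behind mm10, Ipcef1 lies at chr10:6885796-7052478 on the minus strand, Cdk19 at chr10:40339564-40483818 on the plus strand, Eif4ebp2 at chr10:61428491-61452661 on the minus strand and Srgn at chr10:62493833-62527451 on the minus strand. Eif4ebp2 and Srgn are 1041171 bases apart, and their counts had a mean rho of 0.07 over cells. Sf3b4 lies at chr3:96172332-96177564 and Scd2 at chr19:44293674-44306864, both on the plus strand. Overlapping genes were annotated for 5 of the 6, all but Srgn: Gm48086 within Eif4ebp2, Oprm1 and Gm15536 across Ipcef1, Cdk19os against Cdk19, Gm17690 and Gm22027 at Sf3b4, and Mir5114 within Scd2. None of these is listed in the table, and the sources used here do not say how counting treated strand, so reads of overlapping genes cannot be told apart. The longest transcripts of Eif4ebp2, Ipcef1, Cdk19 and Scd2 were of similar length, at 5784, 6041, 5807 and 5455 bases. Those of Sf3b4 and Srgn were shorter, at 1915 and 1727 bases.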

How the data were processed

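Members and lists were chosen with earlier results of these data known, and the choice used the same cells. Single cells were profiled by SORT-seq with a 6-base UMI, and reads were mapped with BWA to mm10, per the submitters' processing notes. The deposited table holds expected counts, transcripts estimated by the authors from distinct UMIs, of which 8.56% of the values above 0 are not whole. They were rounded to whole numbers here, and 84 spike-ins, 19.6% of counts, were left out. CD5 was deposited as a fluorescence signal of each sorted cell, with the class of the cell given by the authors. Rules for keeping cells and genes, and the version of BWA, are not given in the sources used here. No doublet caller was run on these sorted single cells. The deposited primer sheet gave barcodes only.

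Counts were summed per plate and CD5 class, per plate and CD5 bin, or per plate and depth (deeper or shallower than its median cell). They were fitted over all genes with edgeR 4.0.16 (quasi-likelihood, TMM, filterByExpr) in R 4.3.3, two-sided, with Benjamini-Hochberg adjustment and the plate as a block. The plate pairs sums of 1 library: deviations from class means correlated at 0.379 to 0.710 within plates over 408 abundant genes. Dispersions were shrunk across genes, with 38.4 prior and 4 residual degrees of freedom for the classes. DESeq2 1.42.0, numpy 2.4.6, pandas 2.3.3, scipy 1.17.1, statsmodels 0.14.6 (lowess) and matplotlib 3.10.9 under Python 3.11.15 were also used. The edgeR script was tested on simulated data. Variability was taken after thinning to 2118 UMIs (the 0.2 quantile of cell totals, leaving 557 cells) over genes averaging 0.05 UMIs or more. Intervals are exact at 95%. Intervals of log2 values are approximate, from the SE. Positions come from GENCODE M21, matched by symbol for 13450 genes. Apart from the 6 genes, the naming rule takes the 3 most alike genes per member, the 3 genes on each side of the variability threshold, up to 3 genes of smallest p per list, Cd5 and overlapping genes; a few genes it takes are not reported here. Paralogs, complex partners and granule genes given with counts only were named after their values were seen. Alternatives changed scaling, test, filter, block, plates, cells, depth and thresholds.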

Additional observations from a re-analysis of the deposited data

How the results depend on the processing

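None of the 6 genes passed in the 3 fits under the alternatives that gave it an adjusted p. Over all 189 values the lowest adjusted p was 0.679 and the lowest unadjusted p 0.0163, and 16 had the other sign. DESeq2 gave no adjusted p to Eif4ebp2, Ipcef1, Cdk19, Sf3b4 and Scd2 for the slope. It gave none to Eif4ebp2, Ipcef1 and Scd2 for depth. After thinning, and with a mean of at least 50 counts per sum required, most of the sparse genes were not fitted. Leaving out a plate at a time, High minus Low ran from -0.10 to 1.44 for Eif4ebp2 and from -0.0042 to 0.35 for Srgn, and deep minus shallow from -0.36 to 0.041 for Eif4ebp2 and from -0.19 to 1.06 for Ipcef1. With the next well's CD5 in plate 2, the class value was 0.17 for Cdk19 and -0.064 for Srgn, and the slope 0.0031 and -0.026. Thinned to 1 depth, the class value of Cdk19 was 0.47. Without the top cells, Cdk19 was at 0.12 for the class, 0.029 for the slope and -0.024 for depth, and the depth values of Eif4ebp2, Ipcef1 and Scd2 were 0.38, -0.10 and 0.24. With only the deepest and shallowest cells of each plate compared (a split at the quartiles), Eif4ebp2 was at 0.16. The cause was not tested.

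Counts of all genes called in the class fit (9) were 24 with the next well's CD5, 5 by DESeq2, 1 after thinning, 16 with no filter, 0 without the replicate block, 1 without the cell richest in Kcnq1ot1, and 0 to 20 without a plate. At an unadjusted p under 0.05 the class fit without the block had 196 genes. Those of the slope (8) were 17 with the next well's CD5, 0 without the replicate block (173 unadjusted), 1 without the Kcnq1ot1 cell and 0 to 15 without a plate. Those of depth (25) were 10 by DESeq2, 0 without the replicate block (228 unadjusted) and 0 to 18 without a plate. The 2 genes in the top 5% of spread (21 of all genes) became 1 with no thinning (20), 1 at the median depth (18), 1 with a random draw (17), 5 with the top 10% (55), and 2 to 3 without a plate (46 to 53). The 84 high cells became 173 at 3 UMIs and 3-fold, 23 at 10 UMIs, 23 after thinning and 44 to 68 without a plate, and the 3 cells high in more than 1 gene became 20, 0, 0 and 1 to 3. Few UMIs per gene limit all of these: 5 of the 6 genes rest on 148 to 455 UMIs in all.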
